A study of Mus musculus with 24 samples.

Results

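The comparison of spinal cord injury (SCI) with SHAM surgery in adult mice at 12 h held 6 of the 24 libraries of the series, 3 SCI and 3 SHAM libraries of the P90 (postnatal day 90) 12 h cohort, chosen by their labels. It covered every miRNA arm with reads in these libraries, 1451 arms in all, of which 774 had a mean normalised count of at least 5 and were tested. The mice were C57BL/6J males. In the SCI group a needle was used to transect the whole cervical cord, at C5/6 in the labels, whereas SHAM mice had the same approach to the cord but no lesion. The labels call the controls wild type and give no genotype for the injured mice. Both groups were anaesthetised with isoflurane and had the cervical spine exposed, and their sensorimotor cortex, which lies far from the lesion, was taken 12 h later and stored per animal. The tissue is the sensorimotor cortex in the labels, whereas the methods of the study name both the whole of it and its layer V.

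A miRNA is cut from a hairpin precursor, whose 5p and 3p arms can each yield a short mature strand. One strand is usually retained in the Argonaute protein, where bases 2 to 8, the seed, pair with target messenger RNAs and lower their output, and the opposite strand is mostly degraded. In the adult cortex the most abundant miRNAs include the neuronal miR-9, miR-128 and miR-124 and the let-7 family, which is known for its high level in differentiated cells.

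The sequences on which the results turn are given first. All mature sequences are from RefSeq, with positions on GRCm38.p6, and the seed is in capitals. The 3p arms of the miR-7 hairpins are shown because only 1 of them was called, although it shares its seed with another.
miR-7b-3p: cAACAAGUcacagccagccuca
miR-7a-2-3p: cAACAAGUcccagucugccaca
miR-7a-1-3p: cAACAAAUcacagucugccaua
miR-7b-5p: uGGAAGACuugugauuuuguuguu
miR-7b-3p lies at chr17:56243055-56243076 and miR-7b-5p at chr17:56243017-56243040, both on the plus strand. The annotation places their hairpin, Mir7b, in no other gene. miR-7a-1-3p lies at chr13:58392800-58392821 on the minus strand, in an intron of Hnrnpk, and miR-7a-2-3p at chr7:78888335-78888356 on the plus strand.

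The let-7 members are shown because they share a seed and all had a negative log2 fold change, although neither an arm nor their sum passed the test.
let-7a-5p: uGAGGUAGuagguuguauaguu
let-7f-5p: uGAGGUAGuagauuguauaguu
let-7d-5p: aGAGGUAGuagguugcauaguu
let-7i-5p: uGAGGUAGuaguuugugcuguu
let-7b-5p: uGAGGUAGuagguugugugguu
let-7d-5p lies at chr13:48536078-48536099 and the let-7f-5p copy of Mirlet7f-1 at chr13:48537889-48537910, both on the minus strand in an exon of the lincRNA 6720427I07Rik, beside Mirlet7a-1. A second let-7f hairpin lies in an intron of Huwe1 on chromosome X.

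A few further arms with higher SCI values are the minor strands of their hairpins or of doubtful origin. They are shown with the read that carried most of the counts of miR-5126.
miR-551b-5p: gAAAUCAAgcuugggugagaccu
miR-26a-1-3p: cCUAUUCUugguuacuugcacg
miR-5126, RefSeq mature: gCGGGCGGggccgggggcgggg
miR-5126, read in these libraries: cGCGGGCGgggccggggg
miR-551b-5p lies at chr3:29416840-29416862 in an intron of Egfem1, and miR-26a-1-3p at chr9:119031850-119031871 in an intron of Ctdspl, both on the plus strand and the strand of the host gene. The mature miR-5126 lies at chr1:84695890-84695911 on the plus strand, opposite to an exon of Dner. All reads of miR-5126 in the 6 libraries had the same 18 nt sequence, which differs from the mature form in its start and its length and is made of G and C alone.

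The libraries held 20534330 to 34298726 reads in SHAM and 12387840 to 17244817 in SCI, so the SHAM libraries were deeper without exception. Reads of 18 nt or more that matched a hairpin in whole and without mismatch made up 70.2% to 77.7% of each library. The 10 most abundant arms held 50.3% to 53.7% of the miRNA reads. The correlation of log counts between libraries, across arms, was 0.986 to 0.992, and no pair of replicates agreed within sampling noise. A library was taken to stand for 1 animal, since the labels speak of individual collection.

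Few miRNA arms passed the test between SCI and SHAM in the adult cortex at 12 h. With 3 libraries per group, an arm that did not pass is not shown to be unchanged. By edgeR's quasi-likelihood test, 2 of the 774 arms (0.258%) passed both limits, 0.05 on the adjusted p and 1 on the size of the log2 fold change, and both rose. They were miR-7b-3p and miR-5126. At an unadjusted p under 0.05 there were 56 arms (7.24%), 31 higher and 25 lower. The SCI values lay above all SHAM values in 61 arms (7.88%) and below them in 58 (7.49%). The median log2 fold change over the 774 arms was -0.00168, a value that TMM scaling sets close to 0 by its construction, as it does the balance of higher and lower arms. In bulk tissue, fewer cells of a type and less RNA per cell cannot be told apart.

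**Figure D1:**
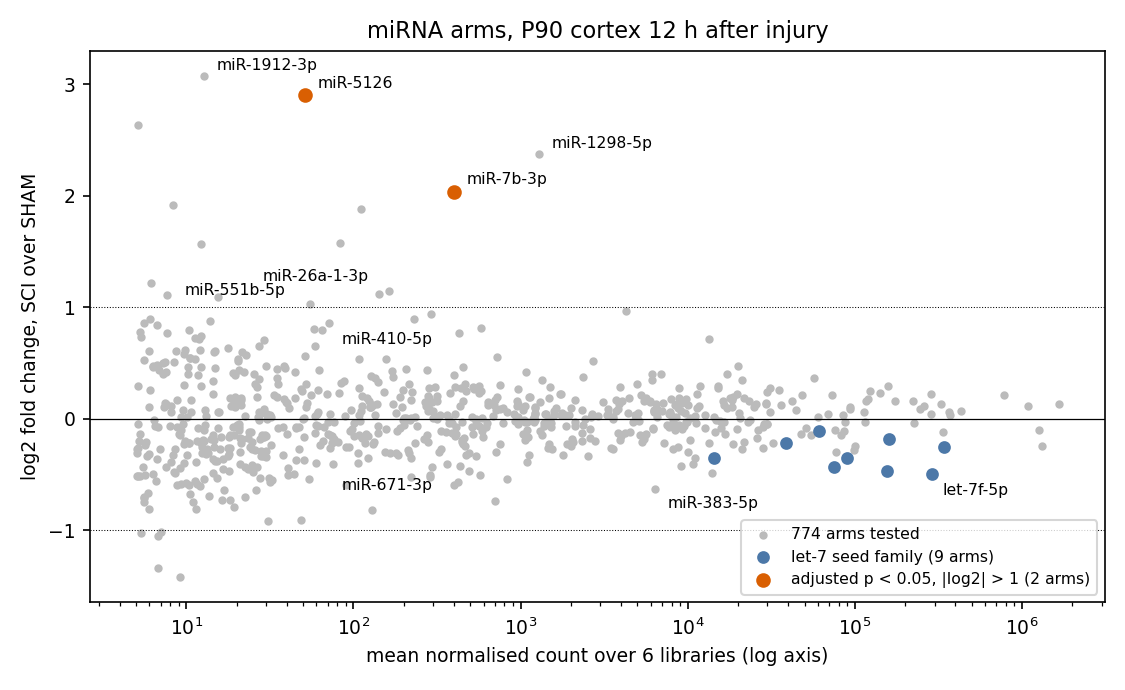
Log2 fold change (SCI over SHAM) of the 774 miRNA arms against their mean normalised count over the 6 libraries, on a log axis. Each point is an arm. Orange points are the 2 called arms, blue points the 9 members of the let-7 seed family, all below 0, and dotted lines mark a log2 fold change of 1 in each direction.

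The size of the changes differed with the level of the arm. The median size of the log2 fold change was 0.43 in the 86 arms with a mean normalised count under 10, 0.27 in the 237 arms from 10 to 100, 0.17 in the 177 arms from 100 to 1000, 0.10 in the next 158 arms and 0.14 in the 116 most abundant arms. By GC content of the most abundant read, the median log2 fold change was 0.06 in the 66 arms up to 35% and -0.06 in the 61 arms over 65%, whereas miR-5126, at 100%, was higher in SCI.

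miR-7b-3p is the 3p strand of Mir7b, a hairpin whose more abundant 5p strand is a form of the miR-7 known from neurons and endocrine cells. It had 130, 170 and 169 normalised counts in SHAM mice and 636, 535 and 748 in SCI mice. The groups lay far apart relative to their spread. The mean was 157 ± 22.9 in SHAM and 640 ± 107 in SCI (SD, n = 3), a log2 fold change of 2.03 (SE 0.20, edgeR adjusted p = 0.00427). The same sequence held 74.1% to 82.2% of its reads in each library, and 94.9% to 99.0% of reads began at the same base, so the rise was carried by 1 form of the arm.

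The partner strand did not move with it. miR-7b-5p had 13441, 8160 and 9397 normalised counts in SHAM and 11913, 10556 and 8703 in SCI, a log2 fold change of 0.01 (SE 0.20). The groups overlapped. The ratio of the 5p to the 3p strand therefore moved from log2 values of 6.69, 5.58 and 5.79 in SHAM to 4.23, 4.30 and 3.54 in SCI, a difference of -1.996 (SE 0.36, limma adjusted p = 0.176 over 311 arm pairs). None of the 311 ratios (0%) passed an adjusted p under 0.05 by limma, and 24 (7.72%) had an unadjusted p under 0.05. When only the 200 pairs with both arms at a mean of 50 or more were tested, 2 passed by limma, those of miR-7b and miR-551b, each with an adjusted p of 0.0402. This mean was taken over both groups. All SHAM values of miR-551b-5p lay under 50, so its pair entered only through SCI and its pass is not independent support.

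The other miR-7 arms did not pass the test. miR-7a-5p, which has the seed of miR-7b-5p, had a log2 fold change of 0.10 (SE 0.18), miR-7a-1-3p 0.19 (SE 0.14) and miR-7a-2-3p 0.11 (SE 0.23). miR-7a-2-3p shares the seed of miR-7b-3p, yet its normalised counts were 90.7, 155 and 118 in SHAM and 148, 130 and 113 in SCI, with full overlap. The 2 arms of this seed added together still rose, with sums of 223, 326 and 290 in SHAM and 774, 644 and 857 in SCI (log2 fold change 1.44, SE 0.19, edgeR adjusted p = 0.026). This sum was not called when any 1 SHAM library or SCI 3 was left out (adjusted p of 0.0644 to 0.131), whereas miR-7b-3p alone was called with each library left out in turn. Their seed family, AACAAGU, was 1 of 2 called among 661 families (0.303%). The other was the family of miR-5126 alone. At an unadjusted p under 0.05 by edgeR there were 53 families (8.02%), 27 higher and 26 lower.

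**Figure D2:**
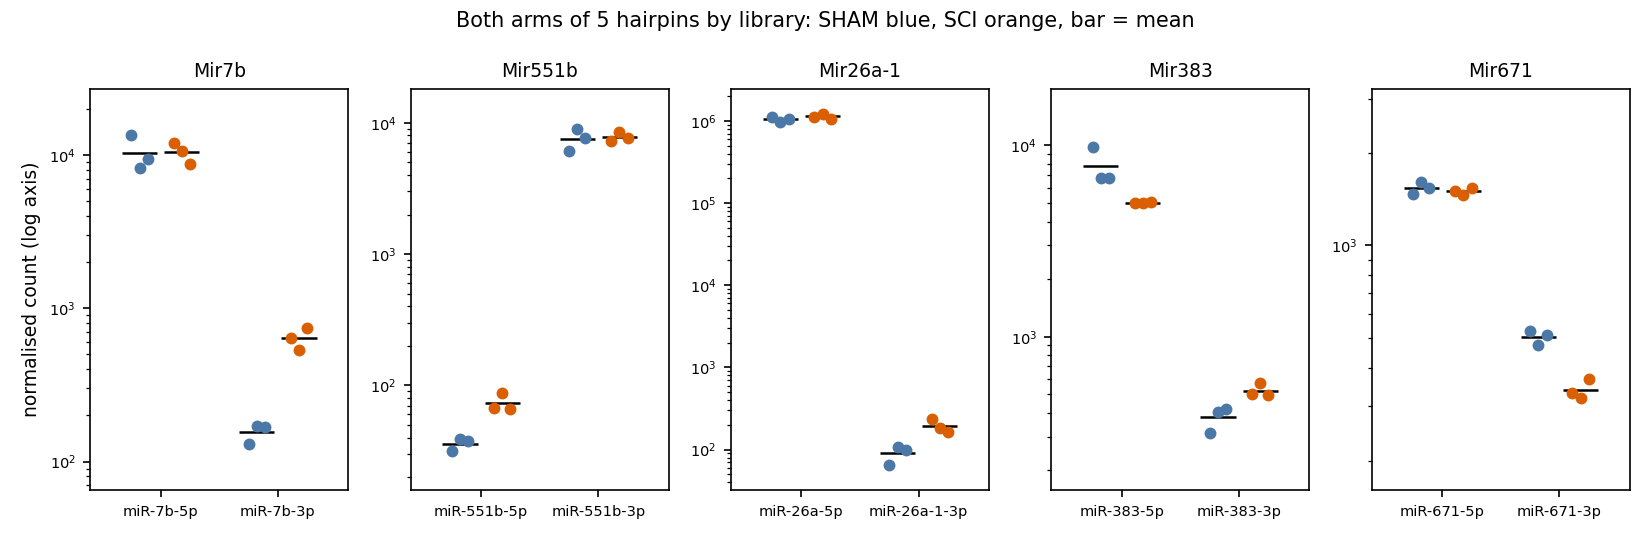
Normalised counts of both arms of 5 hairpins in each library, on log axes that differ between panels, with SHAM in blue, SCI in orange and the group mean as a bar. miR-7b-3p, miR-551b-5p and miR-26a-1-3p are higher in the SCI libraries while their more abundant partner strands overlap, miR-383 moves in opposite directions in its arms, and miR-671-3p is lower beside an overlapping miR-671-5p.

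miR-5126 had 8.25, 10.7 and 17.4 normalised counts in SHAM and 76.7, 139 and 56.9 in SCI. The groups did not overlap, but the SCI values were widely spread. The log2 fold change was 2.91 (SE 0.42, edgeR adjusted p = 0.039). Its single sequence of G and C sits at the lower length limit of 18 nt, and the call was lost with a correction for GC content (log2 fold change 2.25, adjusted p = 0.196), after thinning to the smallest library (adjusted p = 0.0951) and without SHAM 1, SHAM 2 or SCI 2. It could not be tested with reads of 20 to 25 nt alone, since it has none. The part of base composition and of fragmentation in its rise was not tested.

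Several further minor strands had higher SCI values without overlap but did not pass the adjusted threshold. miR-551b-5p had 31.8, 38.7 and 37.5 normalised counts in SHAM and 66.7, 88.2 and 66.5 in SCI (log2 fold change 1.03, SE 0.21, edgeR adjusted p = 0.245). Its partner miR-551b-3p, more abundant by a factor given by log2 ratios of 6.58 to 7.85, had a log2 fold change of 0.05. The share of miR-551b-5p reads with the full RefSeq sequence was 32.5% to 42.6% in SHAM and 56.6% to 59.2% in SCI, and with that sequence alone the arm was called (log2 fold change 1.59, adjusted p = 0.0468).

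miR-26a-1-3p had 64.2, 107 and 99.7 normalised counts in SHAM and 234, 185 and 166 in SCI (log2 fold change 1.12, SE 0.24, edgeR adjusted p = 0.245). DESeq2 called it, with an adjusted p of 0.00907. The main strand miR-26a-5p, which 2 hairpins encode, had means of 1042210 in SHAM and 1130850 in SCI, with overlap. miR-410-5p, the minor strand of a hairpin in the Mirg host transcript, had a log2 fold change of 0.85 (SE 0.19), and the main strand miR-410-3p 0.35 (SE 0.11), both with all SCI values above SHAM.

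Among abundant arms, miR-384-3p had 16053, 17572 and 16865 normalised counts in SHAM and 25053, 24454 and 20724 in SCI (log2 fold change 0.48, SE 0.11, edgeR adjusted p = 0.283). Its groups lay well apart although the fold was small. miR-758-3p, of the same chromosome 12 cluster as miR-410, had a log2 fold change of 0.55 (SE 0.16). The remaining arms among the 10 with the smallest p and no overlap above SHAM were rare. miR-3473f, miR-5128, miR-3072-5p and miR-344f-5p had SHAM means of 1.31 to 9.92 and SCI means of 8.92 to 21, with log2 fold changes of 1.10 to 2.63, and rested on few reads. The filter used the mean over both groups. Any arm with a SHAM mean under 5 was therefore tested only through its SCI values, which favours a place among the higher arms. The reads of miR-3473f were spread over 115 sequences, none over 25% of a library's reads of this arm, and its most abundant read in the series is not the RefSeq mature form.

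The gain of a minor strand was not general. Over the 311 hairpins with both arms tested, the rarer strand gained on the more abundant one in 141 and lost in 170, with a median difference of -0.0313 on the log2 scale. Of the 24 pairs with an unadjusted p under 0.05 by limma, the minor strand gained in 13 and lost in 11. The loss was shown by miR-671, whose rarer strand miR-671-3p had 527, 477 and 510 normalised counts in SHAM and 332, 320 and 368 in SCI (log2 fold change -0.57, SE 0.15, edgeR adjusted p = 0.351). Its partner miR-671-5p, known for cutting the circular RNA Cdr1as, had means of 1542 and 1501, a log2 fold change of -0.04 (SE 0.13). miR-383 moved in opposite directions in its arms. miR-383-5p had 9870, 6763 and 6751 normalised counts in SHAM and 4993, 5001 and 5086 in SCI (log2 fold change -0.63, SE 0.17), and miR-383-3p a log2 fold change of 0.46 (SE 0.17). The ratio of its arms differed by -1.08 (SE 0.29, limma adjusted p = 0.458).

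The arms with lower SCI values included abundant let-7 members. Of the 10 named for the smallest p without overlap below SHAM, 3 were let-7d-5p, let-7f-5p and let-7a-5p, and none of the 10 passed the adjusted threshold (edgeR adjusted p of 0.351 to 0.591). let-7f-5p had 434595, 285015 and 297095 normalised counts in SHAM and 256967, 245054 and 217731 in SCI, a log2 fold change of -0.50 (SE 0.17). let-7a-5p had 230061, 156844 and 157563 in SHAM and 143362, 123914 and 126420 in SCI, a log2 fold change of -0.47 (SE 0.17). In both, SHAM 1 stood well above the other SHAM libraries, and those in turn lay above SCI by a small margin.

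All 9 tested arms with the let-7 seed GAGGUAG had a negative log2 fold change, from -0.50 to -0.11, and all SCI values lay below SHAM in 7 of them, against 7.49% of all arms tested. No arm passed the test, and the members share libraries, so the 7 are not independent. let-7g-5p and let-7b-5p overlapped. The sum over the seed had a log2 fold change of -0.38 (SE 0.12, edgeR adjusted p = 0.552). let-7 took 10.5%, 8.07% and 8.57% of the tested miRNA reads in SHAM and 7.27%, 6.90% and 7.25% in SCI, a mean of 9.04% ± 1.27 against 7.14% ± 0.21 (SD, n = 3). Without SHAM 1 the log2 fold change of the sum was -0.23. The opposite strands did not follow. Of the 10 let-7 3p arms tested, 3 were lower in SCI and 7 higher, none passed the adjusted threshold, and the groups overlapped in 9, with let-7c-1-3p the exception at a log2 fold change of -0.33.

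**Figure D3:**
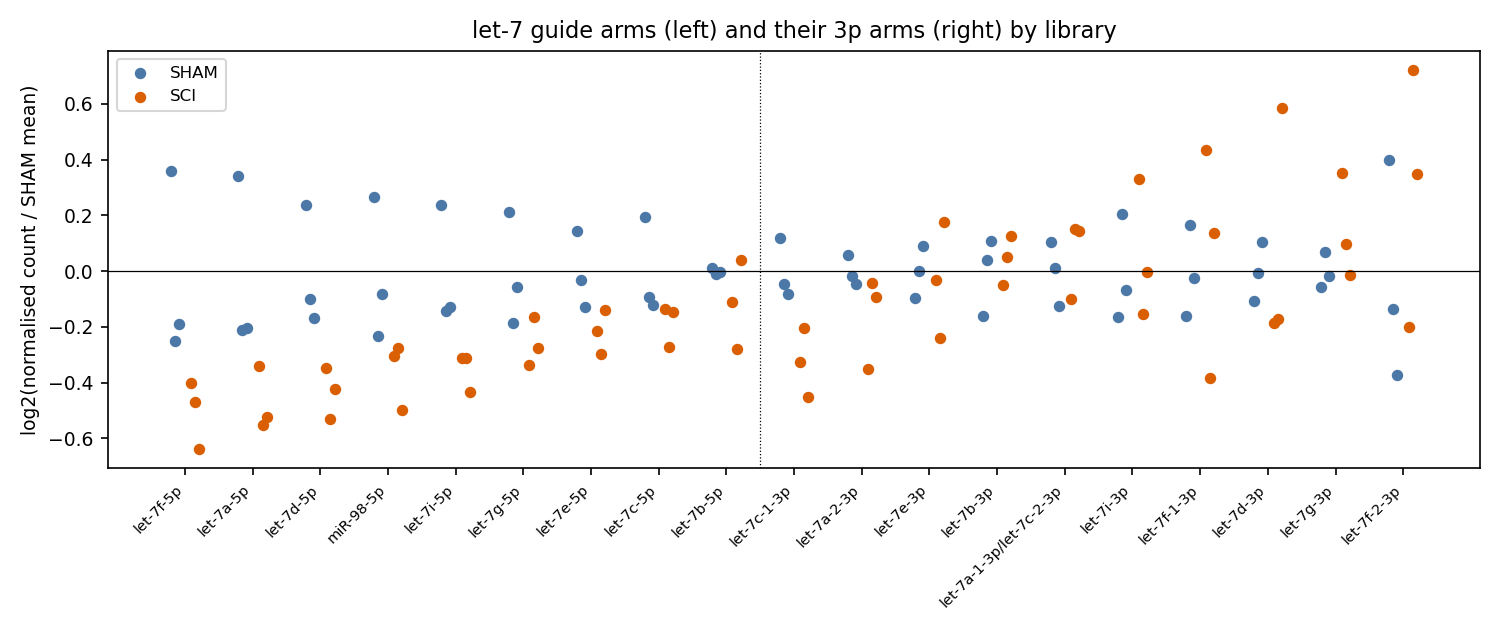
Normalised counts of the 9 let-7 guide arms, left of the dotted line, and of the 10 let-7 3p arms, right of it, in each library as log2 of the ratio to the SHAM mean. SHAM is blue and SCI orange. The SCI points lie below the SHAM points in 7 of the 9 guide arms, SHAM 1 is the highest SHAM point in each of those 7, and the 3p arms mostly overlap.

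The other lower arms were miR-150-3p with a log2 fold change of -0.91 (SE 0.27), miR-144-5p with -0.59 (SE 0.20), miR-540-3p with -0.39 (SE 0.13), miR-138-1-3p with -0.51 (SE 0.18) and miR-1843b-3p with -0.47 (SE 0.17). miR-150 is a lymphocyte miRNA and miR-144 an erythroid one. miR-150-3p is the rare strand of its hairpin, and the main strand miR-150-5p had means of 14845 in SHAM and 14685 in SCI, a log2 fold change of -0.02 (SE 0.16). miR-540-3p had the tightest groups of these, with 1259, 1145 and 1286 normalised counts in SHAM and 917, 974 and 933 in SCI. The most abundant read of miR-1843b-3p also matches Scarna3a, a small Cajal body RNA, so its counts are uncertain in origin.

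The 10 most abundant arms of the adult cortex differed little. miR-29a-3p, the most abundant, had means of 1581430 in SHAM and 1735720 in SCI (log2 fold change 0.13, SE 0.10), miR-9-5p -0.25 (SE 0.16), miR-128-3p -0.10 (SE 0.09) and miR-9-3p 0.21 (SE 0.11). miR-132-3p, which neuronal activity induces, had a log2 fold change of -0.12 (SE 0.10), and none of these passed the test.

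miRNAs that mark cell types and states were followed as lists, and apart from the miR-7 family and the miRNAs that the study names no list held a called arm. The study chose its list on these libraries, so its count is not independent evidence. Of its 9 members, 8 were tested and 2 were called, miR-7b-3p and miR-5126, which are both of the arms called among all 774 (0.258%). Beside those described, miR-6481 had a log2 fold change of 0.94 with overlap, its most abundant read also matching the mitochondrial mt-Tf. Its value was 0.54 without SHAM 1, 0.57 without SCI 3 and 1.52 without SHAM 2. miR-668-3p had -0.12. miR-709 lay under the filter.

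The neuron-enriched list, 12 arms including miR-124, miR-9, miR-128 and miR-153, had a median log2 fold change of 0.02 and a range of -0.26 to 0.30. Its summed normalised count was 3934400 to 4517460 per library, and that of the liver list, miR-122, 48.6 to 76.2. The 5 activity-regulated arms, of miR-132, miR-212 and miR-134, had a median of -0.12. The myeloid and microglial list, with miR-142, miR-223 and miR-155, had a median of -0.11 over 6 tested arms. These include miR-150-5p (-0.02), of the miR-150 named above as a lymphocyte miRNA, so the list is not myeloid alone. The oligodendrocyte list, miR-219 and miR-338, had a median of -0.03 over 5. All 5 erythroid arms were negative, with a median of -0.27 and summed counts of 11619 to 15729 in SHAM and 10038 to 12962 in SCI, which overlap.

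In the list of injury and inflammation, 7 arms had a median of 0.05 and 1 had an unadjusted p under 0.05 by edgeR, where the share over all arms was 7.24%, so the count does not set the list apart. This arm was miR-21a-3p, the minor strand of the injury-induced miR-21, with 31.2, 58.1 and 52.1 normalised counts in SHAM and 64.1, 101 and 79.9 in SCI (log2 fold change 0.80, SE 0.29, edgeR adjusted p = 0.591). miR-21a-5p had means of 90603 and 95979 and overlapped.

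**Figure D4:**
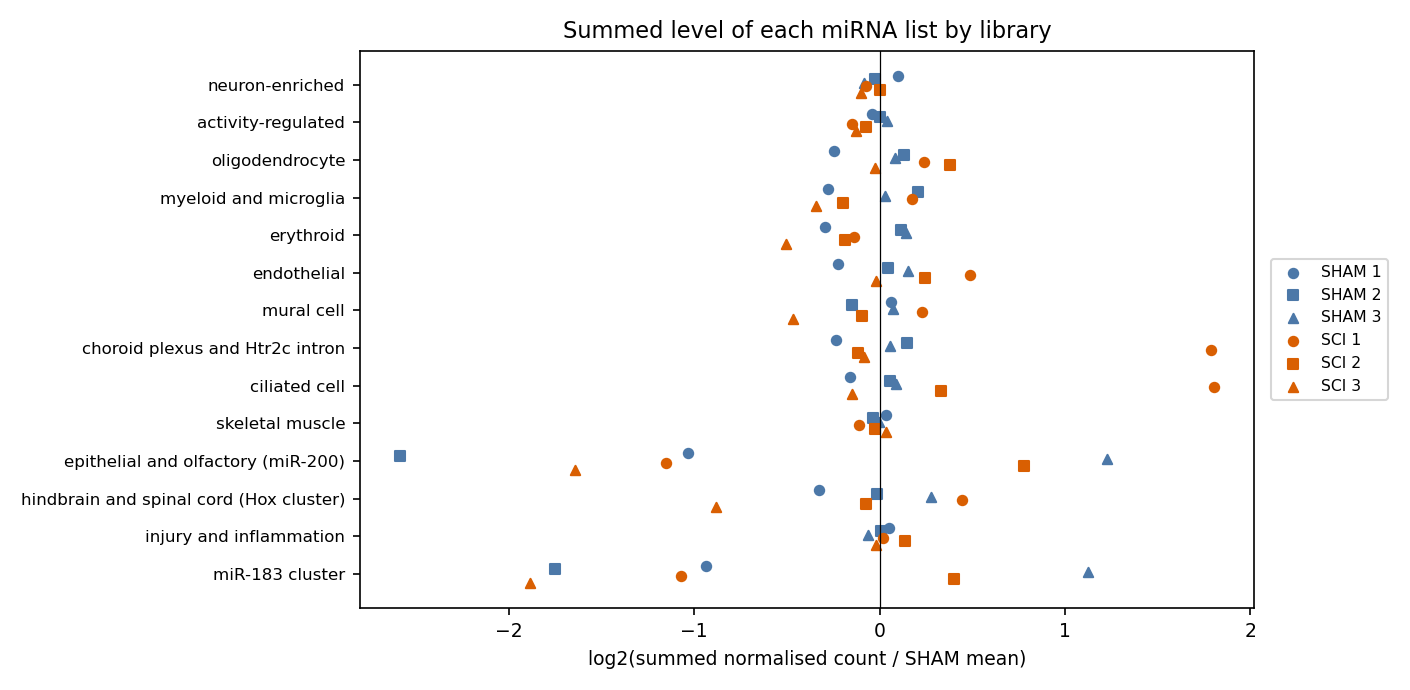
Summed normalised count of 14 of the 20 miRNA lists in each library, as log2 of the ratio to the SHAM mean. SHAM is blue, SCI orange, and the shape marks the replicate. SCI 1 stands apart in the choroid plexus and ciliated cell lists, and SHAM 3 and SCI 2 are high in the miR-200 and miR-183 lists, and neither of these divides the groups.

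In 2 lists a single library decided the value. The choroid plexus secretes cerebrospinal fluid, expresses Htr2c together with the miRNAs in its introns, and lines the ventricles beside ciliated ependymal cells. The summed count of the choroid plexus list was 9553, 12476 and 11700 in SHAM and 38845, 10388 and 10620 in SCI, so SCI 1 alone was high. miR-1298-5p had 420, 428 and 402 in SHAM and 5652, 398 and 428 in SCI. Its log2 fold change of 2.38 became -0.00498 without SCI 1, and the median of the list moved from 0.58 to -0.17. The ciliated cell list, with miR-34b, miR-34c and miR-449a, stood at 13673 in SCI 1 against 3509 to 4943 in the other libraries, and its median moved from 0.81 to 0.10. The changes of miR-7b-3p (2.04), miR-5126 (3.01) and miR-551b-5p (1.10) on the log2 scale were as large without that library.

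The miR-200 list, known from epithelia and olfactory neurons, ranged from 544 to 7647 in SHAM and from 1047 to 5593 in SCI, with SHAM 3 and SCI 2 high, and the miR-183 cluster followed the same libraries, from 292 to 2346 over both groups. Neither divided the libraries by injury. The part of the dissection in these lists was not tested.

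Of 16 genomic clusters with at least 3 hairpins and 3 tested arms, 13 had arms in both directions and 3 had all arms lower, and none held an arm called by edgeR. The largest, from Mir379 to Mir3072 on chromosome 12, which holds miR-410 and miR-758, had 68 tested arms, 34 higher and 34 lower, with a median log2 fold change of -0.01. The Mir466m to Mir669h cluster on chromosome 2 had 22 of 31 arms lower with a median of -0.13, and the Mir500 to Mir532 cluster on chromosome X 8 of 10 higher with a median of 0.31. The clusters with all arms lower were Mir429 to Mir200b (5 arms, median -0.30), Mir182 to Mir183 (3 arms, median -0.54) and Mir344d-3 to Mir344h-2 (3 arms, median -0.11), and the groups overlapped in each of these arms. The first and second are the miR-200 and miR-183 miRNAs, in which SHAM 3 and SCI 2 were high.

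The same contrast in the other cohorts had its own controls. miR-7b-3p had a log2 fold change of 1.82 (SE 0.25) at P15 12 h, 2.68 (SE 0.21) at P90 3 days and 0.70 (SE 0.60) at P15 3 days. The difference between ages at 12 h was 0.18 (SE 0.34, edgeR adjusted p = 0.949) and that between 12 h and 3 days at P90 -0.61 (SE 0.29, adjusted p = 0.601), so no difference was found, within errors that allow one. miR-26a-1-3p had 1.26 (SE 0.29) at P15 12 h and 0.93 (SE 0.26) at P90 3 days.

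Between ages at 12 h, none of 812 arms (0%) passed the edgeR interaction test at an adjusted p under 0.05. An unadjusted p under 0.05 was found in 40, and DESeq2 called 2, miR-5126 and miR-1912-3p. miR-1912-3p belongs to the choroid plexus list, in which SCI 1 alone was high. At P90 12 h its log2 fold change was 3.07 with overlap. Without SCI 1, no tested arm of that list had a value above -0.00498. miR-5126 had a log2 fold change of 0.14 (SE 0.30) at P15 12 h, and a difference of 2.73 (SE 0.53, edgeR adjusted p = 0.112). It was 3.61 (SE 0.39) at P90 3 days. let-7f-5p had a log2 fold change of 0.19 (SE 0.11) at P90 3 days, with all SCI values above SHAM, where it had been -0.50 at 12 h, and the difference of -0.65 (SE 0.21) did not pass the adjusted threshold (edgeR adjusted p = 0.341). let-7a-5p differed likewise, by -0.61 (SE 0.20, edgeR adjusted p = 0.338).

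Between 12 h and 3 days at P90, 1 of 768 arms (0.13%) passed the edgeR interaction test. This was miR-671-5p, with a log2 fold change of -0.04 (SE 0.13) at 12 h and -1.29 at 3 days, a difference of 1.28 (SE 0.18, adjusted p = 0.00465). It was 1 of the arms that the study names, and the call was lost with the replicate block and with all 24 libraries in the fit.

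The reads with no exact whole match to a miRNA hairpin, here called non-miRNA reads, were kept apart. Their mean length differed between the groups without overlap. The non-miRNA reads include reads that match a hairpin over their first 16 bases only or up to an untemplated tail. Such reads, which can be variants of miRNAs, made up 10.1% of all reads in SHAM and 9.80% in SCI. The share of reads assigned to hairpins was 77.7%, 76.0% and 75.8% in SHAM and 74.1%, 70.5% and 70.2% in SCI, a difference of -4.90 percentage points between the means of 76.5 ± 1.03 and 71.6 ± 2.21 (SD, n = 3). The groups did not overlap (two-sided exact permutation p = 0.1, the smallest that 3 libraries against 3 allow). The mean length of the non-miRNA reads was 22.4, 22.3 and 22.8 nt in SHAM and 24.0, 24.8 and 23.9 nt in SCI, a difference of 1.76 nt (exact permutation p = 0.1). The miRNA reads themselves kept their length, with a mean of 21.697 nt in SHAM and 21.696 nt in SCI.

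The gain lay at the long end. Non-miRNA reads of 30 to 34 nt made up 0.639%, 0.660% and 1.13% of all reads in SHAM and 3.93%, 6.74% and 4.23% in SCI, a 6.14-fold higher mean (exact permutation p = 0.1). Counting only reads with no hairpin match, the means at this length were 0.804% in SHAM and 4.95% in SCI. Reads of 21 to 24 nt held 14.2% in SHAM and 14.1% in SCI, and those of 17 to 20 nt 5.08% and 4.72%, with overlap in both. The other cohorts differed in this share. At P90 3 days it was 1.80% to 5.97% in SHAM and 1.66% to 3.27% in SCI, with overlap, so values in the range of the SCI libraries at 12 h were also found in uninjured animals. At P15 12 h it was 0.665% to 1.91% in SHAM and 0.491% to 0.774% in SCI, also with overlap. At P15 3 days it was 2.11% to 2.79% in SHAM and 3.00% to 3.87% in SCI, without overlap. The difference between cohorts was not tested.

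**Figure D5:**
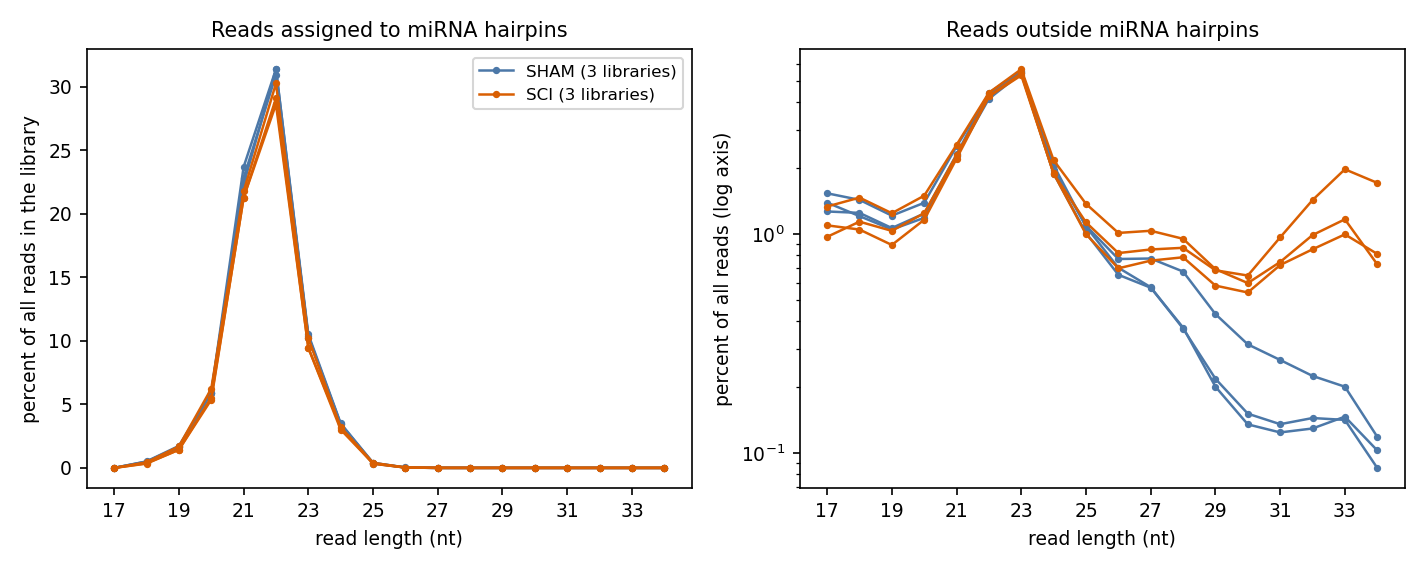
Read length (nt, x axis) against percent of all reads of the library (y axis, linear for reads assigned to miRNA hairpins at the left and log for the other reads at the right), with 1 line per library, SHAM in blue and SCI in orange. The miRNA profiles are alike in shape with a peak at 22 nt, where the SCI lines lie slightly below the SHAM lines. The other reads separate from 28 nt upward, where the SCI lines lie above the SHAM lines.

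Among the RNA classes matched, fragments of tRNAs had the largest ratio at 30 to 34 nt. A tRNA can be cut in its anticodon loop under stress, which leaves a 5' fragment ending there. A pair of reads from tRNA 5' ends and another pair, abundant but matching none of the transcripts used, are shown, as deposited, in DNA letters. They were picked for the highest SCI means among matched tRNA reads and unmatched reads of 30 to 34 nt, with 1 read per tRNA. The unmatched pair can still be of tRNA or rRNA, since the reference lacked most tRNA loci and the ribosomal repeat.
n-TGccc7 fragment: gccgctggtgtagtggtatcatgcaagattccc
n-TVcac9 fragment: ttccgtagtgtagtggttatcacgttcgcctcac
unmatched fragment 1: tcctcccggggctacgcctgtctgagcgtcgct
unmatched fragment 2: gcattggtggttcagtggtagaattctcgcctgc
The first begins at base 3 of its tRNA gene at chr17:25875088-25875158 and the second at base 3 of its gene at chr13:23446142-23446214.

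The n-TGccc7 fragment had 79.3, 97.6 and 138 RPM (reads scaled to the library total) in SHAM and 950, 1351 and 741 in SCI (edgeR log2 fold change 3.34, SE 0.31, adjusted p = 0.0139). The n-TVcac9 fragment had 61.2, 57.2 and 75.6 in SHAM and 482, 1373 and 568 in SCI (edgeR log2 fold change 3.72, SE 0.45, adjusted p = 0.0139). Unmatched fragment 1 went from a mean of 547 ± 170 to 4367 ± 1248 RPM, and unmatched fragment 2 from 154 ± 30.8 to 2285 ± 1311 (SD, n = 3, both with an edgeR adjusted p of 0.0139). In each of the 4 the SCI libraries lay above every SHAM library. The choice by SCI level favours such an order, so these values describe the examples and do not test the shift.

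In the 3 tRNAs with reads of every kind, the ratio was highest for long reads from the 5' end. Reads of n-TGccc7 that began at bases 1 to 5 and were 30 to 34 nt long were 9.07-fold higher, shorter ones from the same start 2.72-fold higher, and reads that began at base 6 or later 1.26-fold higher with overlap. For n-TVcac9 these ratios were 8.43, 2.31 and 1.12, and for n-THgtg7 7.16, 2.25 and 1.35. Short reads could gain as much. For n-TNgtt6 only reads of 17 to 29 nt from bases 1 to 5 were listed, and they were 7.27-fold higher without overlap, while reads of this kind from n-TSaga9 had a ratio of 0.748 with overlap. A 19 nt read of n-TNgtt6, picked as its most abundant in SCI, went from 4.69 ± 0.27 to 41.3 ± 12.2 RPM (SD, n = 3, edgeR adjusted p = 0.0139). Not every tRNA read followed. Reads from base 6 onward of n-TStga1 had a ratio of 0.329, with all SCI values below SHAM, at 158, 129 and 108 RPM in SHAM and 39.0, 28.5 and 62.6 in SCI. Only 10 of 430 annotated tRNA loci had their whole sequence in the reference tables and 7 a part of it, so these are examples.

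Among matched reads, the long ones were not those of tRNAs alone. At 30 to 34 nt, matched reads were 8.64-fold higher for tRNA, 4.56-fold for rRNA, 4.29-fold for mitochondrial tRNA, 4.25-fold for mitochondrial rRNA, 3.74-fold for snoRNA and 4.99-fold for mRNA, each without overlap. snRNA reads of this length overlapped, at 1.61-fold. Reads with no match averaged 5011 RPM in SHAM and 35147 in SCI and formed the bulk of the gain. The reference held few tRNA loci and no ribosomal repeat, so unmatched reads can come from either. The ratios by class therefore cover the matched reads only, and the RNA of most long reads is not known here. In the opposite direction, snoRNA fragments of 17 to 20 nt and of 21 to 24 nt had ratios of 0.515 and 0.551, all SCI values below SHAM, as had snRNA fragments of 21 to 24 nt at 0.517.

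Tested singly after scaling to the miRNA reads, 3222 of 42420 non-miRNA sequences rose (7.6%) and 487 fell (1.15%) by edgeR. Of the 3657 sequences of 30 to 34 nt, 2059 rose (56.3%) and none fell, with a median log2 fold change of 2.57 over the class. The filter used the reads of both groups together, so sequences of this length could enter through their SCI reads alone. They also share libraries, so these counts restate the shift in length and are not independent support. At the length of miRNAs, 21 to 24 nt, 297 of 19565 rose and 142 fell, with a median of 0.02. These can include variants of miRNAs that lack an exact whole match. The count depended on the libraries, with no sequence called without SHAM 1 or without SHAM 2, 158 without SCI 2, 1901 without SCI 3 and 8825 without SCI 1. The part of RNA quality in the length shift was not tested.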

How the data were processed

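Total small RNA of the cortex was sequenced from libraries made with HD adapters, which carry degenerate bases at their ligating ends. Per the study's methods, the authors trimmed adapters and degenerate bases. They deposited raw counts of all distinct sequences from 17 to 34 nt per library, not normalised and not limited to genome matches. The counts are of reads, not of molecules.

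Here, reads of 18 nt or more were assigned by whole-read exact sense match to the named hairpins of the GRCm38.p6 annotation, which RNAfold 2.7.2 divided into arms. Reads that fit several miRNAs, 0.151% to 0.23% of hairpin reads, were left out, and the rest were summed per arm. Arms with a mean normalised count of at least 5 were tested with edgeR 4.0.16 (TMM, quasi-likelihood, Benjamini-Hochberg) in R 4.3.3, seed families (bases 2 to 8) likewise, and arm ratios with limma 3.58.1 and a pseudocount of 0.5. Standard errors are the log2 fold change over the root of the F statistic. For single values per library the exact permutation test was used, two-sided. Non-miRNA sequences with 20 reads or more over the 6 libraries, 83.1% to 88.2% of the non-miRNA reads, were scaled by the miRNA library sizes. This test was added after the data were seen. The alternatives were DESeq2 1.42.0, other scalings, filters, assignments, lengths, a GC correction, a replicate block, thinning and the omission of each library. edgeR and limma were tested on simulated counts.

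The arms named are those called, the 10 with the smallest p and no overlap in each direction, the miR-7 arms, the 10 most abundant, those the study names, and list members. The comparison and the lists were chosen with earlier results of these data known. One library was taken as 1 animal. The edgeR and limma p-values set the difference between groups against the spread of these libraries within groups. Those of the permutation test set it against all regroupings of the same libraries. At this depth 3 reads correspond to 0.0875 to 0.242 RPM.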

Additional observations from a re-analysis of the deposited data

Results flagged for a closer look

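The effect of SCI on miR-671-5p differed between the times at P90 by a test of the difference itself. At 12 h the log2 fold change was -0.04 (SE 0.13) and at 3 days -1.29, a difference of 1.28 on the log2 scale (SE 0.18, edgeR adjusted p = 0.00465). At P15 the difference from P90 at 12 h was 0.23 (SE 0.18, edgeR adjusted p = 0.884). With the replicate number as a block the adjusted p of the difference between times became 0.17, and with all 24 libraries in the fit 0.254. No formal test for outlying libraries was run in groups of 3, and the libraries that decided a value were found by leaving out each in turn.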

How the results depend on the processing

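Of the 2 called arms, miR-7b-3p kept its call in 21 of 23 alternatives (log2 fold change 1.91 to 2.14), and lost it with the replicate block and GC correction together (adjusted p = 0.085) and with all 24 libraries in the fit (adjusted p = 0.0859), where the spread of the other cohorts enters. miR-5126 lost its call in 7 of 22 (adjusted p of 5.03e-08 to 0.935). For both arms the alternatives include a log2 limit of 0.5 and the unadjusted p. These only loosen the thresholds on the main fit, so no call could be lost there. The count of called arms was 5 without a filter, 12 with an unadjusted p, 1 with reads of 20 to 25 nt, 1 with the GC correction, 1 after thinning, 0 with the replicate block and GC correction, 0 with all 24 libraries, and 1 to 2 with 1 library left out. Called families numbered 10 without a filter, 1 with bases 2 to 7 and 0 to 2 with 1 library left out. Called arm ratios numbered 2 with both arms at 50 or more. The difference between ages had 2 calls by DESeq2, 7 without a filter and 0 to 1 with 1 library left out, the 1 being without SCI replicate 3. The difference between times had 24 without a filter, 0 with the replicate block, 0 with all 24 libraries and 1 to 5 with 1 library left out, 5 being without SHAM replicate 2 of P90 3 days. The cause of these shifts was not tested.

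The gain in length of non-miRNA reads was 2.73 nt when reads whose first 16 bases match a hairpin were left out. The difference in miRNA length turned to 0.0404 nt when arms had equal weight. The number of non-miRNA sequences called was 0 to 8825 with 1 library left out. miR-30a-5p turned to -0.16 with its most abundant sequence alone, and miR-1298-5p ranged from -0.00498 to 2.86 with 1 library left out. Among 1119 values of single features under alternatives, 1080 stayed on the same side of the threshold. Some of these changed sign by less than the SE of the main fit. miR-7b-5p, for example, went from 0.01 to -0.10 without SCI 1. Of the rest, 18 lost a call, 19 gained one and 2 reversed. Most of these features were not called in the main fit, so keeping their side was likely from the outset.

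Same-numbered libraries did not deviate together (correlations of -0.167, -0.264 and -0.204), so the numbers were not taken as pairs. The replicate block left 2 called arms, 2 called families and 0 arm ratios, and 0 calls in the difference between ages.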
